A study of Homo sapiens with 4 samples.

Results

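Band q24.31 of human chromosome 12 holds a dense row of genes, and 44 of them, from RNF34 to AACS in chromosomal order, were described here as 1 group of neighbours. The group was drawn up because most of these genes were lower in the CD133+ than in the CD133- cells of the same data, so the differences below describe the members and support nothing about them. All 44 genes had at least 1 probe set, out of 19775 genes with one on the array, and 42 lay above the expression floor, the median RMA value of all probe sets in the population with the higher value. In both populations these 42 had values above the floor. DNAH10 and CCDC62 did not pass it.

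The cells were PLC8024, a human hepatocellular carcinoma line, sorted by flow cytometry on CD133, a membrane glycoprotein by which cells with tumour-initiating capacity are enriched from liver cancers. The deposited samples were 1 CD133+ and 1 CD133- population, each given as RMA log2 values and as MAS5 linear intensities. These are 2 processings and not replicates, so no difference carries an error between sorts, cultures or arrays, and no test was possible. The number of arrays limits the precision, and the one measure of spread was technical. Where a gene had another probe set above the floor (6166 genes), the gap between the differences of the pair had an SD of 0.35 in RMA and 0.79 in MAS5. A lower value in such bulk samples can mean fewer cells that make the RNA or less RNA per cell, and these cannot be told apart.

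PROM1, the gene of CD133, stood at 10.35 in the CD133+ and 6.04 in the CD133- cells in RMA, the direction of the labels. All 9 hepatocyte and liver carcinoma markers were above the floor in both populations, with a summed log2 level of 14.998 in CD133+ and 15.32 in CD133-. Their RMA differences were -3.42 for ALB, -2.78 for AFP, -1.80 for APOA1, -0.33 for KRT18, -0.28 for KRT8, -0.23 for APOB, -0.09 for FGB, 0.06 for SERPINA1 and 0.28 for TTR. Of 3 leukocyte markers 2 were not above the floor, and of 4 fibroblast and stellate markers 2 were not. Those above it were CD3E, at 5.85 in CD133+ and 5.78 in CD133-, COL1A1, at 8.27 and 8.08, and DCN, at 5.27 and 5.17. The summed level of the leukocyte markers was 6.61 in CD133+ and 6.50 in CD133- on the log2 scale, and that of the fibroblast and stellate markers 8.62 and 8.46. The endothelial markers VWF, CDH5 and KDR were not above the floor, while PECAM1 was at 6.11 in CD133+ and 7.87 in CD133-, and the summed level of these 4 markers was 6.83 and 8.14. Whether any of these markers has a part in the values of the 12q24.31 genes was not tested.

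The neighbours do not form a pathway. They include writers and erasers of histone marks (SETD1B, KMT5A, KDM2B), factors that initiate transcription and translation (GTF2H3, EIF2B1, DENR), parts of the machinery that sorts membrane proteins to lysosomes (VPS33A, VPS37B, ATP6V0A2) and the lipoprotein receptor SCARB1, which is abundant in liver. Most are transcribed in nearly every cell type, each from its own start site. They were grouped here by the stretch of chromosome on which they lie, and whether position has a part in their values was not tested. The arrays measured RNA, and DNA copy number and chromatin were not analysed here.

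Of the 44 members, 39 had a lower RMA value in CD133+ than in CD133-, 4 had a higher one and CCDC62 had equal values. Among all 13116 genes above the floor, the share with a lower value was 49.9%. The median difference of the members, CD133+ minus CD133-, was -0.45 on the log2 scale, with a range from -1.31 to 0.33, whereas the median over all genes above the floor was 0.00. In MAS5 the members' median log2 ratio was -0.57 and 40 members were lower in CD133+. Both processings placed 38 members lower in CD133+.

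A gene was counted as lower or higher only when RMA and MAS5 both put it 1.5-fold or more apart, and on the same side. Of the 42 members above the floor 13 met this rule on the lower side and 0 on the higher, and with DNAH10, below the floor, 14 of 44 did. The same rule called 4.17% of all genes above the floor lower and 5.32% higher. At 2-fold in both processings SCARB1 was the one member left, with none higher, where 1.09% of all genes above the floor were lower and 2.25% higher. In 27 members the RMA difference was lower than -0.35, that is, beyond the technical SD, and in none was it higher than 0.35. The share of all genes above the floor that was lower by more than this SD was 13.8%. Since the members were chosen on this contrast, these shares are given for scale alone.

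**Figure D1:**
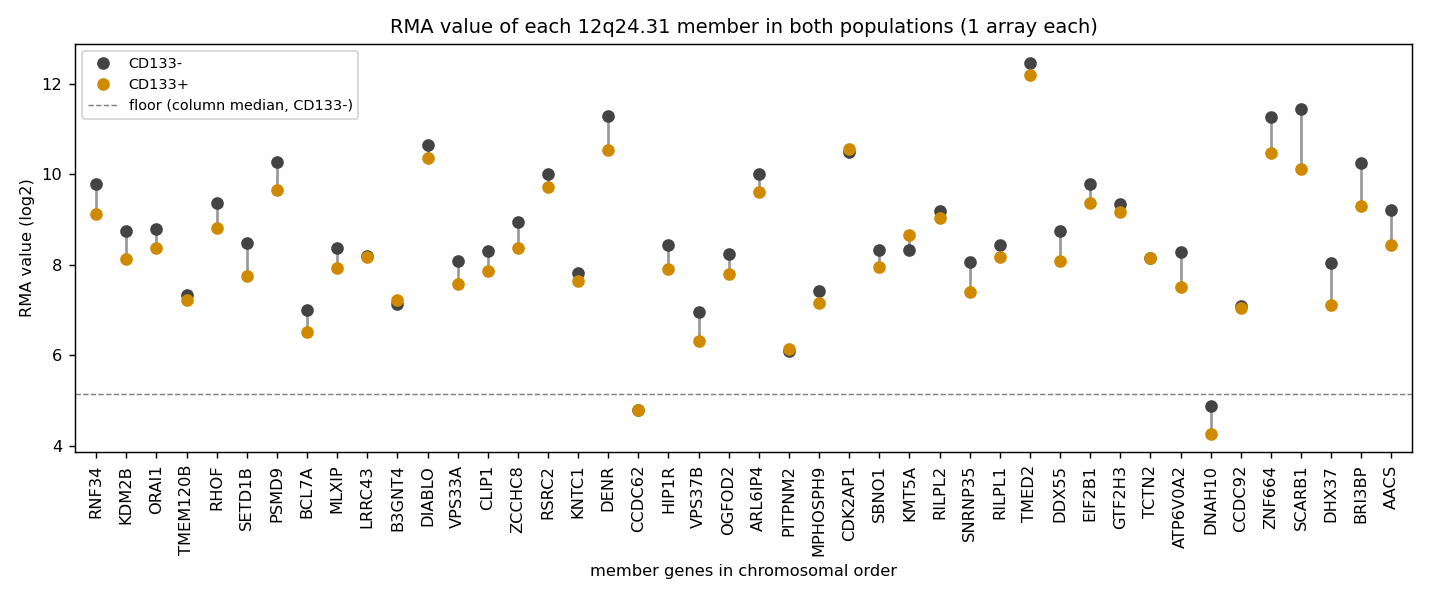
RMA value (log2, vertical axis) of each 12q24.31 member in CD133- (dark points) and CD133+ cells (orange points), in chromosomal order, with 1 array per population and a line joining both values. The dark point lies above the orange one in 39 of 44 genes, and CCDC62 and DNAH10 lie under the dashed floor.

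**Figure D2:**
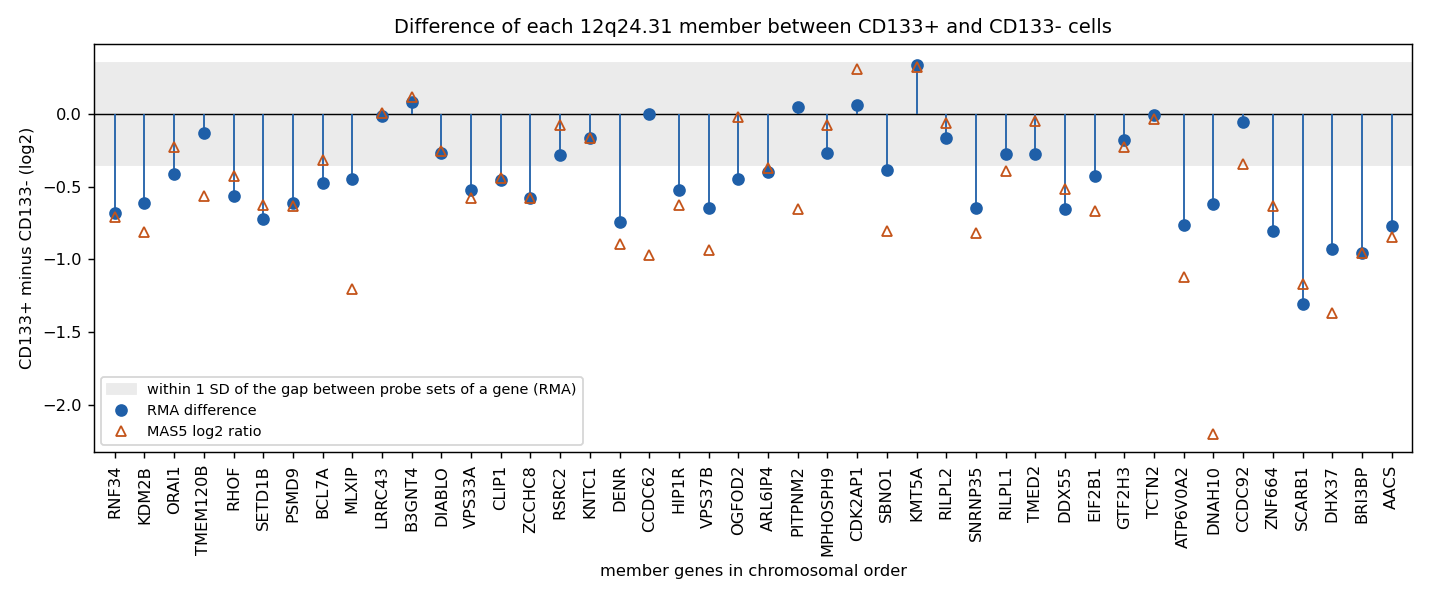
RMA difference (filled circles) and MAS5 log2 ratio (open triangles), CD133+ minus CD133-, for the members in chromosomal order. The grey band is 1 SD of the RMA gap between probe sets of a gene (0.35), and 27 circles lie below it and none above.

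The last members in chromosomal order, SCARB1, DHX37, BRI3BP and AACS, were all counted as lower. SCARB1 encodes the receptor that takes up cholesteryl esters from high-density lipoprotein. Its RMA values were 10.12 in CD133+ and 11.43 in CD133-, a difference of -1.31 or 2.47-fold, and its MAS5 intensities were 4815 and 10807. BRI3BP, a membrane protein, was at 9.30 and 10.26 in RMA with MAS5 intensities of 2466 and 4783, which is 1.94-fold lower in CD133+ in each processing. DHX37, a helicase of small ribosomal subunit assembly, was at 7.10 in CD133+ and 8.03 in CD133- in RMA and at 313.7 and 810.7 in MAS5, with differences of -0.93 and -1.37. AACS, the cytosolic enzyme that activates acetoacetate for lipid synthesis, was at 8.44 and 9.21 in RMA and at 1398 and 2510 in MAS5. All 4 were lower in CD133+ in both processings, with a median RMA difference of -0.94. Without these 4 the median of the remaining 40 members was -0.42. In successive blocks of 11 members along the chromosome the medians were -0.47, -0.46, -0.27 and -0.76. The block at -0.27 runs from ARL6IP4 to DDX55 and holds 3 of the 4 members with a higher value in CD133+.

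Promoter sequences of members with a large difference are shown because these genes were lower together in CD133+ although each has its own start site. RefSeq promoter entries of build GRCh38.p14 were found for 36 of the 44 members. For the 5 members with the largest RMA difference among those with 1 entry and no other annotated gene in the window, the 250 bases before the start are printed 5′ to 3′ on the gene's strand. They lie at chr12:124993395-124993644 (plus strand) for BRI3BP, chr12:124989132-124989381 (minus strand) for DHX37, chr12:123972965-123973214 (plus strand) for ZNF664, chr12:123712103-123712352 (plus strand) for ATP6V0A2 and chr12:122752574-122752823 (plus strand) for DENR. Capitals mark matches, on either strand, to the GC box GGGCGG, to the box named CCAAT, to a TATA box spelled TATAAA and to CGGAAG, a core bound by ETS factors. These motifs were chosen after the values were seen.
BRI3BP: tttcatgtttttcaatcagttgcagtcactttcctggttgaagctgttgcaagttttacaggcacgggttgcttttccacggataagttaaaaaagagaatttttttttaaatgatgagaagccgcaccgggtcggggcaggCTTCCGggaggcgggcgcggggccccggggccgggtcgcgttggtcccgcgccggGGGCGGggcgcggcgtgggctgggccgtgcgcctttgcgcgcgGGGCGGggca
DHX37: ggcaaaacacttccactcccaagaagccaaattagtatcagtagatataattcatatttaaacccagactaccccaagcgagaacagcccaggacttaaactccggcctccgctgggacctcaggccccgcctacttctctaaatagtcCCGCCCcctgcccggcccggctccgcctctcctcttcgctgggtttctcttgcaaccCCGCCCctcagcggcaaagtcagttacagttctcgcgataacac
ZNF664: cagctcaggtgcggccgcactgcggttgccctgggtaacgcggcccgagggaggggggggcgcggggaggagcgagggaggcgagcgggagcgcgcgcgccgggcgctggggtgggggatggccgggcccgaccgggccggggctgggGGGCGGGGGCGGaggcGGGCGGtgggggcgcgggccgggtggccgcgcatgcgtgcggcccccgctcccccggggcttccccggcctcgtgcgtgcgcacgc
ATP6V0A2: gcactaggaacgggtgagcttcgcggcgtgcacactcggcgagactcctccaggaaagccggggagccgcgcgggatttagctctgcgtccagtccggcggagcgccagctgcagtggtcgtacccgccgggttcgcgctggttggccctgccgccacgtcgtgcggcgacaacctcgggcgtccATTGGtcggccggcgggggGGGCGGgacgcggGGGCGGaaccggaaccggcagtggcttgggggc
DENR: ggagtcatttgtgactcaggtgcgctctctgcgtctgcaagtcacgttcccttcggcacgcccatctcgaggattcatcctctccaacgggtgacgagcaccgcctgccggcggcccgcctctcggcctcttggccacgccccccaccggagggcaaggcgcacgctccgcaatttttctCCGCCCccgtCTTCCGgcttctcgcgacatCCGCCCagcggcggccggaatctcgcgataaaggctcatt

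All 5 held at least 1 GC box and none held TATAAA. Of the 36 members with an entry, GGGCGG was present before the start of 34, against 46.2% of the 27305 genes of any kind in the table. CGGAAG was present in 16, or 44.4%, against 19.4%, CCAAT in 14, or 38.9%, against 37%, and TATAAA in 1, ARL6IP4, against 13%. A gene was counted when any of its entries held the motif. The comparison was not limited to genes above the floor, as nearly all members were, and that share was not computed. GGGCGG was also present in CDK2AP1, KMT5A and PITPNM2, which were higher in CD133+ in RMA. It was absent in DDX55, with a difference of -0.65, and in LRRC43, with one of -0.02. Whether the motifs have a part in the differences was not tested. The end of GGGCGG and the start of CGGAAG share letters, so that matches to both can overlap. The members' windows held a median of 29 CpG dinucleotides, with a range from 4 in LRRC43 to 43, where the median of all genes was 12. For a gene with several entries the richest window was taken. A match describes letters and was not tied to binding of a factor.

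A pair of members shares the stretch between their starts. EIF2B1, the alpha subunit of the exchange factor that recharges initiation factor eIF2, is read on the minus strand, and GTF2H3, a subunit of the transcription and repair factor TFIIH, on the plus strand, with 142 bases between them at chr12:123633687-123633828. These bases are given on the plus strand with CGGAAG in capitals on either strand.
EIF2B1 to GTF2H3: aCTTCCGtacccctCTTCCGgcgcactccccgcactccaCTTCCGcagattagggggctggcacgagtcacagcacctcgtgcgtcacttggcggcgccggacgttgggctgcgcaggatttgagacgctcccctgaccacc

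The stretch held 3 matches to CGGAAG and no GC box. EIF2B1 was at 9.36 in CD133+ and 9.79 in CD133- in RMA, a difference of -0.43. GTF2H3 was at 9.17 and 9.35, a difference of -0.18. CCDC92, a protein of centrosomes and cilia, and ZNF664, a zinc finger gene, lie head to head with 383 bases between their starts. Their RMA differences were -0.06 for CCDC92 and -0.80 for ZNF664, and their MAS5 log2 ratios -0.35 and -0.64. ZNF664 was at 10.46 in CD133+ and 11.27 in CD133- in RMA, and its MAS5 intensities were 7112 and 11054.5. Its other probe sets above the floor had RMA differences of -0.48 and -0.25, and the one at -0.48 passed it in CD133- alone. The median over all probe sets of ZNF664 was -0.36, nearer to the difference of CCDC92.

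Among the 9 members that act on chromatin or transcription the median RMA difference was -0.45, and 7 were lower in CD133+. SETD1B, a methyltransferase of histone H3 lysine 4, was 1.65-fold lower in RMA, at 7.75 in CD133+ against 8.47 in CD133-, and 1.55-fold lower in MAS5, at 611.3 against 944.5. KDM2B, a demethylase that brings a Polycomb complex to unmethylated CpG islands, was at 8.13 and 8.74 in RMA and at 1033 and 1809 in MAS5. Both were counted as lower, as was ZNF664. BCL7A, a subunit of the BAF remodeller, and MLXIP, a glucose-responsive transcription factor, differed by -0.47 and -0.45 in RMA and by -0.32 and -1.20 in MAS5. SBNO1, a helicase-like nuclear protein, had an RMA difference of -0.39 in its representative probe set, and -1.46 and -0.39 in its others above the floor. CDK2AP1, an inhibitor of CDK2 that also sits in the NuRD complex, was one of the few members without a lower value, at 10.56 in CD133+ and 10.50 in CD133-.

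KMT5A, which places the single methyl group on histone H4 lysine 20, depended on the probe set. The one with the highest signal was at 8.66 in CD133+ and 8.33 in CD133- in RMA and at 1186 and 949.4 in MAS5, a difference of 0.33. Its other 3 probe sets, all above the floor, had RMA differences of -0.84, -0.60 and -0.18. The probe set at -0.18 was higher in CD133+ in MAS5, at 554.0 against 484.3. KMT5A thus had readings on both sides of 0.

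All 9 members grouped here under RNA and translation were lower in CD133+, with a median of -0.58. DENR, which with MCTS1 lets ribosomes restart after a short reading frame, was at 10.54 in CD133+ and 11.28 in CD133- in RMA, and its MAS5 intensities were 5364 and 9989. That is 1.67-fold in RMA and 1.86-fold in MAS5. Its other probe sets above the floor had smaller RMA differences, of -0.45, -0.25 and -0.18, and the median over all its probe sets was -0.25. SNRNP35, a protein of the minor spliceosome's U11/U12 particle, was at 7.41 and 8.05 in RMA and at 439.2 and 774.6 in MAS5. DENR, SNRNP35 and DHX37 were counted as lower. DDX55, a helicase of large ribosomal subunit assembly, had RMA values of 8.08 and 8.73 and missed the count in MAS5, at 1256 against 1798, which is 1.43-fold. ZCCHC8, the scaffold of the NEXT complex that hands RNA to the exosome, had values of 8.37 and 8.94 in RMA and 1574 and 2352 in MAS5, and missed it at 1.49-fold in both. Another, weaker probe set of ZCCHC8, which passed the floor in CD133- alone, had an RMA difference of -0.10. OGFOD2, an oxygenase-domain protein, EIF2B1, ARL6IP4, a nuclear speckle protein, and RSRC2, an arginine- and serine-rich protein, had RMA differences of -0.45, -0.43, -0.40 and -0.29. In MAS5, OGFOD2 and RSRC2 had log2 ratios of -0.02 and -0.08.

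The 9 members of membrane traffic had a median RMA difference of -0.52, and 8 were lower in CD133+. ATP6V0A2, a membrane subunit of the proton pump that acidifies Golgi and endosomes, was at 7.52 in CD133+ and 8.28 in CD133- in RMA and at 517.5 and 1125 in MAS5. VPS37B, a subunit of ESCRT-I, which sorts ubiquitinated cargo, was at 6.31 and 6.96 in RMA and at 238.9 and 456.0 in MAS5. ATP6V0A2 and VPS37B were the counted members of this group, at 1.70-fold and 1.57-fold lower in RMA. Other probe sets of ATP6V0A2 above the floor had RMA differences of -0.47, -0.42 and -0.23. The probe set at -0.47 passed the floor in CD133- alone. The one at -0.23 had MAS5 intensities of 559.5 in CD133+ and 522.4 in CD133-. The median over all probe sets of ATP6V0A2 was -0.32. VPS33A, a subunit of the HOPS and CORVET tethers, was at 7.57 and 8.09 in RMA and at 784.3 and 1170 in MAS5, or 1.44-fold and 1.49-fold lower. Another probe set of VPS33A above the floor had an RMA difference of -0.27, which was also the median over its probe sets. RHOF and HIP1R, which links clathrin coats to actin, had RMA differences of -0.56 and -0.53. RILPL1 and RILPL2, effectors of Rab proteins, had differences of -0.27 and -0.17, and TMED2, a cargo receptor of early secretory vesicles, one of -0.27. The other 2 probe sets of TMED2, with lower signal, were at -0.67 and -0.64. PITPNM2, a phosphatidylinositol transfer protein, went apart between processings, with RMA values of 6.14 and 6.10 and MAS5 intensities of 78.9 and 124.4.

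Membrane and metabolic proteins numbered 6, with a median of -0.59, and SCARB1, BRI3BP and AACS were counted as lower. ORAI1, the pore of the calcium channel that opens when stores empty, was at 8.38 and 8.79 in RMA. TMEM120B, a membrane protein, had a difference of -0.13 in RMA and -0.57 in MAS5, and B3GNT4, a glycosyltransferase, one of 0.08 in RMA and 0.11 in MAS5. B3GNT4 and CDK2AP1 were the members that were higher in CD133+ in both processings with no probe set lower. Each had 1 probe set.

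In protein turnover and apoptosis, RNF34, a ubiquitin ligase and the first member in order, was at 9.11 in CD133+ and 9.79 in CD133- in RMA and at 2400 and 3930 in MAS5. PSMD9, a chaperone of proteasome assembly, was at 9.66 and 10.27 in RMA and at 2973 and 4613 in MAS5. Both were counted as lower. DIABLO, the mitochondrial protein SMAC, which relieves caspases of their inhibitors, had a difference of -0.27 in RMA and -0.26 in MAS5.

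The 6 members of microtubules, mitosis and cilia had a median RMA difference of -0.22, and all 6 were lower in CD133+. CLIP1, a microtubule plus-end protein, was at 7.86 in CD133+ and 8.31 in CD133- in RMA and at 1263 and 1720 in MAS5, and MPHOSPH9, a centriole protein, had an RMA difference of -0.27, with its other probe sets at -0.98, -0.90 and -0.47. KNTC1, a spindle checkpoint protein of the kinetochore, had a difference of -0.17, TCTN2, of the ciliary transition zone, -0.01, and CCDC92 -0.06. DNAH10, an axonemal dynein chain, had RMA values of 4.27 and 4.89 and MAS5 intensities of 8.69 and 39.8, both RMA values under the floor, so that no fold is given. LRRC43, a protein with leucine-rich repeats, had values of 8.18 and 8.20 in RMA and 122.3 and 122.0 in MAS5. CCDC62 was listed at 4.80 in both RMA columns and at 96.0 and 187.7 in MAS5, again under the floor.

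The members had 106 probe sets in all, of which 87 were above the floor, and 82 of these 87 had a lower value in CD133+. The floor was applied to the higher value, so a probe set could pass it on CD133- alone. A probe set each of ZCCHC8, ATP6V0A2, ZNF664 and SCARB1 did so, and all of these lie among the 82. Of 27 members with more than 1 probe set, 18 had lower values in CD133+ in every one. In 25 members the probe set with the next highest signal also passed the floor, that of ZCCHC8 in CD133- alone. Of these 25 probe sets, 24 were lower in CD133+, with a median of -0.47 and a range from -1.25 to 0.30 over the 25. They were read from the same arrays and target the same transcripts, so they describe how steady a reading was and add no sample. SCARB1 was steady, with RMA differences of -1.31, -1.27 and -1.25 in 3 probe sets, -0.51 in another that passed the floor in CD133- alone and -0.12 in one below it. The other probe set of DHX37 had a difference of -1.07.

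**Figure D3:**
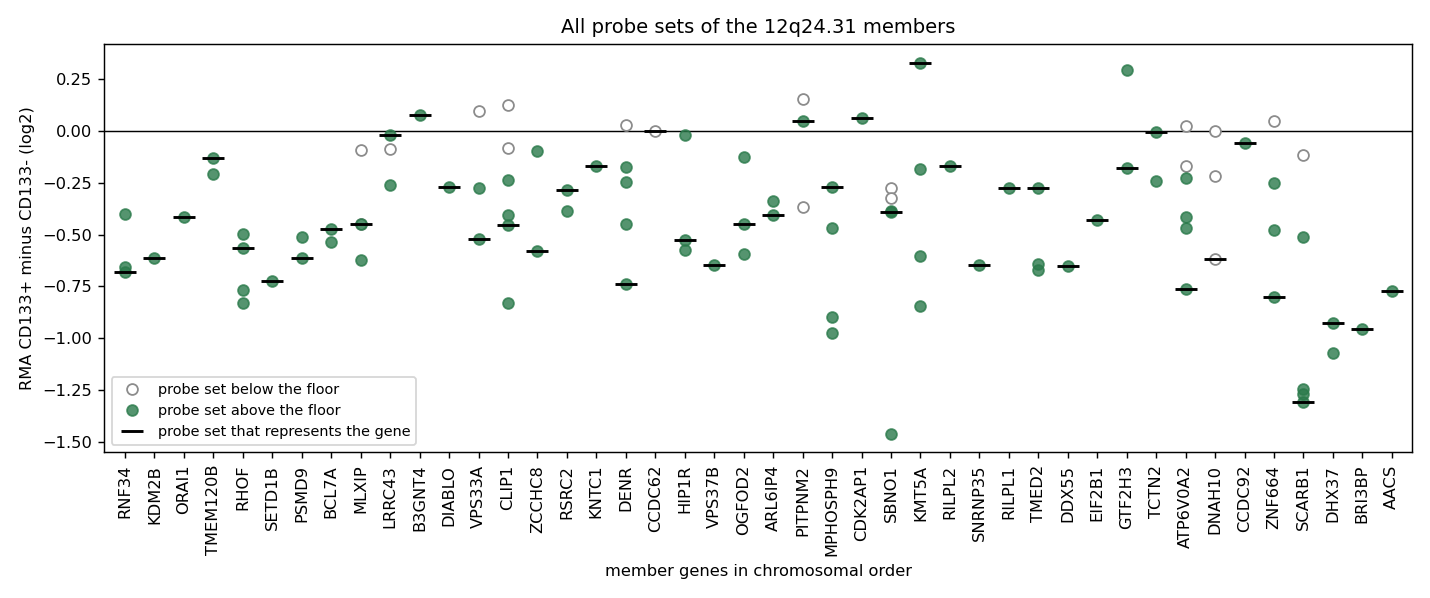
RMA difference, CD133+ minus CD133- (log2), of all 106 probe sets of the members in chromosomal order, with filled points above and open points below the floor and a black dash on the probe set that represents the gene. Of the filled points 82 of 87 lie under 0, some of them above the floor in CD133- alone. The representative probe set of KMT5A lies above its others.

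Members with probe sets of both signs were VPS33A, CLIP1, DENR, PITPNM2, KMT5A, GTF2H3, ATP6V0A2 and ZNF664. In VPS33A, CLIP1, DENR, ATP6V0A2 and ZNF664 the probe set with the higher value in CD133+ was below the floor, with differences of 0.10, 0.12, 0.03, 0.03 and 0.05. GTF2H3 had 1 probe set at 9.17 in CD133+ and 9.35 in CD133- in RMA and at 2370 and 2774 in MAS5, and another above the floor with a difference of 0.30. The probe sets that represent GTF2H3, TCTN2 and ARL6IP4 are of the _x_at type, which can bind related transcripts.

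The lower values did not stop at the first member. Of the 4 nearest measured genes before RNF34, ANAPC5, a subunit of the anaphase-promoting complex, had an RMA difference of -0.29, CAMKK2, a calcium-dependent kinase, 0.05, P2RX4, an ATP-gated channel, -0.34 and P2RX7, a related channel below the floor, -0.07. The 4 nearest measured genes after AACS, TMEM132B, LINC00939, LOC101927531 and LINC02825, were all below the floor, with differences of 0.14, -0.42, -0.02 and -0.20. Among the 20 measured genes on each side, 19 of 40 were above the floor, and 17 of these 19 were lower in CD133+ with a median of -0.36. Over all 40 the median was -0.17.

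Along chromosome 12, 710 genes were above the floor and their median RMA difference was 0.01. A run with lower values in CD133+ went from RFC5, a clamp loader subunit, to GLT1D1, a glycosyltransferase-domain gene, with ends set after the values were seen. Of the 83 genes of this run above the floor 73 were lower in CD133+. By 1.5-fold or more in RMA and MAS5 alike, 24 of the 83, or 28.9%, were lower and none was higher. Among all genes above the floor these shares were 4.17% and 5.32%. Because the ends were set on these values, the counts are given for scale alone. The median of the 83 genes was -0.43. The 31 genes of the run before RNF34 had a median of -0.38, the 49 from RNF34 to AACS one of -0.45, and the 3 after AACS one of -1.38. Those 3 were LINC00508 at -1.38, SLC15A4, a lysosomal transporter of histidine and peptides, at -1.56, and GLT1D1 at -0.92. SLC15A4 was at 8.11 in CD133+ and 9.66 in CD133- in RMA, and GLT1D1 lay under the floor in CD133+ at 5.07.

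The ends of the run were read among genes above the floor. FBXO21, an F-box gene and the nearest such gene before it, had an RMA difference of 0.13. RFC5 and WSB2, which open the run, had differences of -0.65 and -0.53. After GLT1D1, the next such genes were the syntaxin gene STX2 at -0.04 and the GTPase gene RAN at 0.14. Measured genes below the floor lie between, NOS1 and KSR2 before RFC5 and those from TMEM132D to RIMBP2 before STX2. The 15 genes above the floor before RFC5 had a median of 0.25 and the 15 after GLT1D1 one of 0.06. The median of 15 consecutive genes ran from -0.77 to -0.25 within the run, and elsewhere, leaving out the windows that reach into it, from -0.23 to 0.34. Of the 597 genes of chromosome 12 above the floor before the run, 42.2% were lower in CD133+. The share was 36.7% in the 30 after the run and 88.0% within it. The ends of the run were set on these values. The gaps between inside and outside follow from that choice and support nothing about its limits.

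**Figure D4:**
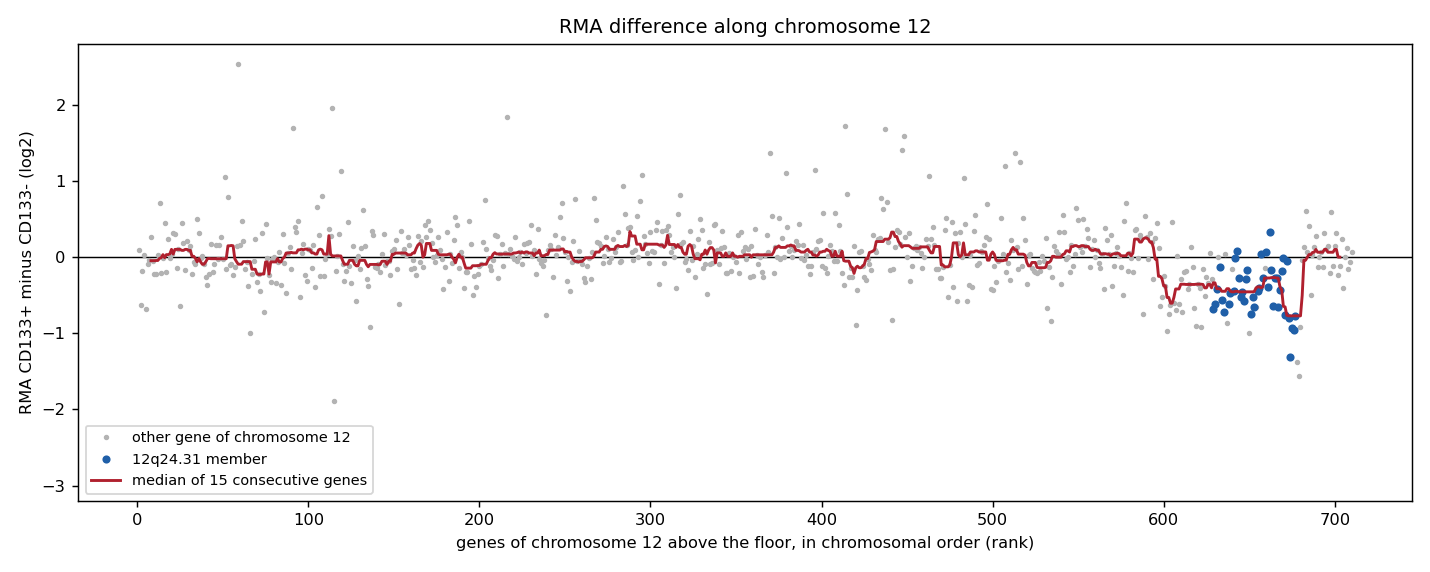
RMA difference, CD133+ minus CD133- (log2), of the 710 genes of chromosome 12 above the floor by their rank in chromosomal order, with the members in blue and the median of 15 consecutive genes as a red line. Away from the run the line lies between -0.23 and 0.34, and it drops to between -0.77 and -0.25 from rank 598 (RFC5) to rank 680 (GLT1D1). The ends of the run were set after the values were seen.

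Other measured genes lie between the members. Of 13, 7 were above the floor, with a median difference of -0.16, and 5 of the 7 were lower in CD133+. HCAR3, a receptor for hydroxylated fatty acids, was at 7.57 in CD133+ and 8.57 in CD133-, HPD, an enzyme of tyrosine breakdown, at 5.48 and 6.34, and ABCB9, a lysosomal peptide transporter, at 5.69 and 6.34. These 3 were chosen after their values were seen. HCAR3 has a near-identical neighbour, HCAR2, whose transcript its probe set may also bind. LINC01089, a noncoding RNA, had a difference of 0.04 and MTRFR, a mitochondrial translation release factor, one of -0.15.

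Many members work in complexes with proteins encoded elsewhere, and these partners were read for comparison. For 17 members, lists of partners written from textbook knowledge held 106 genes, of which 99 were measured and all 99 were above the floor. The lists also hold paralogues of members, such as VPS37A and ORAI2. The median RMA difference of the partners was -0.07, and in MAS5 it lay on the other side of 0, at 0.02. In RMA 57 of 99, or 57.6%, were lower in CD133+, where the share of all genes above the floor was 49.9%. Of the 99 partners 5, or 5.05%, were counted as lower and 2 as higher. The same rule called 4.17% of all genes above the floor lower and 5.32% higher, so the partners' lower share was near that of any genes. All 17 members that belong with the partners were lower in RMA, with a median of -0.52. That side of 0 was part of how the members were picked, and it was not tested against the partners. No list was written for CDK2AP1, KMT5A, PITPNM2 or B3GNT4, the members with a higher RMA value in CD133+. The member lay below the median of its partners in 16 of 17 complexes, which follows in part from which members had a list. The exception was KNTC1 at -0.17, with ZW10 and ZWILCH at a median of -0.26.

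SNRNP35, with 1 probe set, was at -0.65 against a median of 0.15 over 6 proteins of the minor spliceosome. DENR was at -0.74 against 0.14 for MCTS1, and ATP6V0A2 at -0.76 against -0.03 over 7 other subunits of the proton pump. With the median over their probe sets, DENR was at -0.25 and ATP6V0A2 at -0.32. For SETD1B the values were -0.72 and -0.12, for KDM2B -0.61 and -0.01, and for PSMD9 -0.61 and -0.07. EIF2B1 stood at -0.43 while its 4 fellow subunits ran from -0.20 to -0.17. The gap was small for DIABLO, at -0.27 against -0.22. ZCCHC8 was at -0.58 against -0.53, but that median came from 2 partners far apart, RBM7 at -0.93 and MTREX at -0.13.

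The partners with the largest differences were TMEM216 of the ciliary transition zone, at 8.10 in CD133+ and 7.01 in CD133-, RBM7, the RNA-binding subunit of NEXT, at 8.92 and 9.84 and the calcium channel subunit ORAI2 at 8.50 and 7.59, all in RMA. VPS37A, a paralogue of VPS37B, followed with an RMA difference of -0.77 and MAS5 intensities of 1975 and 3204. Of these, TMEM216 and RBM7 lie on chromosome 11, ORAI2 on chromosome 7 and VPS37A on chromosome 8. TMEM216 and ORAI2 were higher in CD133+, while RBM7 and VPS37A were lower. The member ZCCHC8, which acts with RBM7, and the member VPS37B, the paralogue of VPS37A, were lower too. The other listed NEXT partner, MTREX, was at -0.13, and the median over the 8 listed ESCRT-I genes was -0.07.

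**Figure D5:**
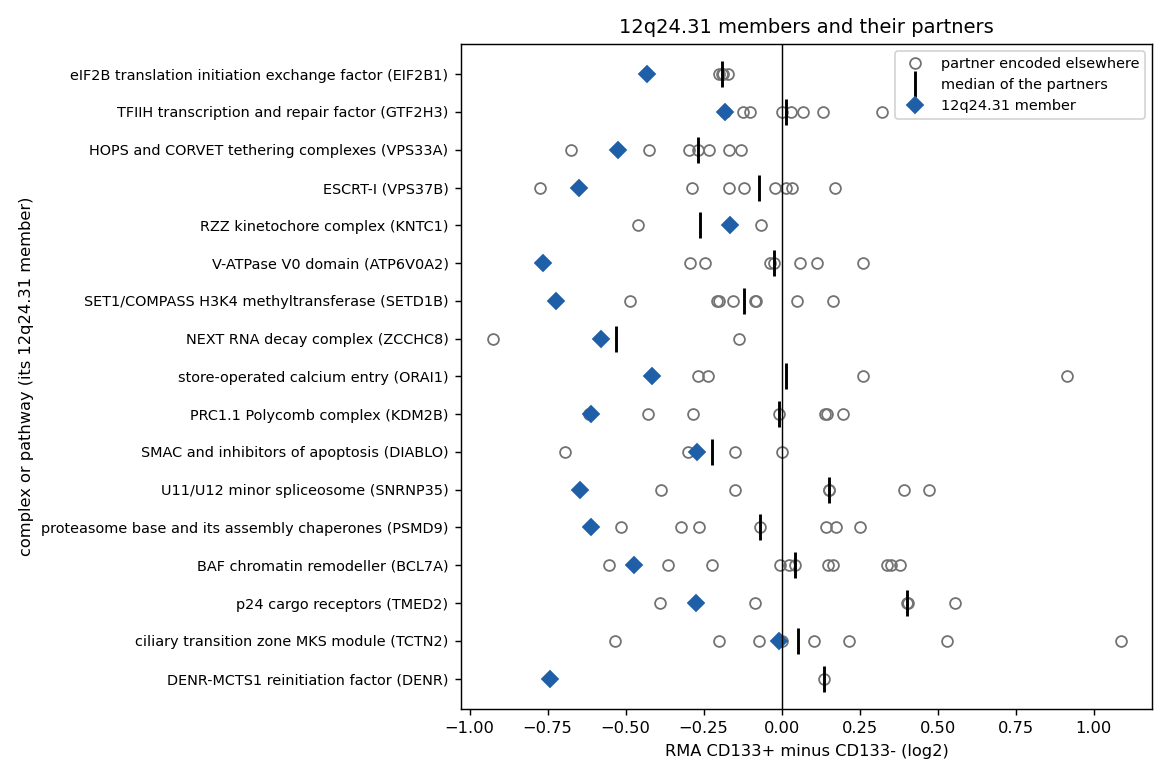
RMA difference, CD133+ minus CD133- (log2, horizontal axis), of 17 members (blue diamonds) and of the 99 measured partners encoded elsewhere (open circles, with a black bar at their median), 1 row per complex or pathway. The diamond lies left of the bar in 16 of 17 rows, and the partners lie on both sides of 0. All 17 members shown were lower in CD133+, and the members with a higher value had no partner list.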

How the data were processed

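Gene expression in sorted CD133+ and CD133- PLC8024 cells was read on 1 array per population and processing. Per the labels, the authors deposited MAS5 output as linear intensity values and RMA output as log2 values. The submitters' processing notes list GCOS, MAS5 and RMA. For each tool the version was not given in the sources used here, nor which arrays entered each normalization or whether both processings read the same array.

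Of 54675 probe sets, 41097 named 1 gene in GEO's platform annotation, and symbols were updated through gene IDs in the RefSeq table of GRCh38.p14, which also gave the gene order. Each gene was represented by the probe set whose mean over both RMA values was highest. Differences were CD133+ minus CD133- in RMA and the log2 ratio of MAS5 intensities. The floor was 5.16 in CD133+ and 5.14 in CD133-. Calculations used Python 3.11.15 and pandas 2.3.3 and were tested on simulated data. No p-value was computed.

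Full values were given for the 16 members with the largest RMA difference, the first and last member, members whose processings or probe sets had opposite signs, the 4 nearest genes outside each end and the 4 partners with the largest difference. A few others were named after their values were seen. The members and lists were chosen with earlier results of these data known.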

Additional observations from a re-analysis of the deposited data

How the results depend on the processing

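The members' median RMA difference of -0.45 stayed below 0 in all alternatives run. It was -0.38 when a gene took the median of its probe sets, -0.57 in MAS5 and -0.50 in MAS5 with a pseudocount of 50. It moved by less than 0.05 with the floors, without _x_at and _s_at probe sets (which left 32 members) and without the last 4 members (chosen after seeing the data). Centring on the median of all genes could not move it, because that median was 0. The count of members at least 1.5-fold apart, 14, was 1 at 2-fold and 7 of 32 without those probe set types, and it was 10 to 14 in the other alternatives. The count of members with a higher value in CD133+ was 3 or 4 throughout. The partners' median was -0.07 in RMA and 0.016 in MAS5. The flanking genes' median was -0.17 over 20 genes on each side, -0.12 over 10 and -0.36 above the floor, the last also chosen after seeing the data. Of the 44 single members, 9 moved by at least 0.35 in MAS5 and 7 with the median over probe sets. Of these 7, DENR (-0.25), ATP6V0A2 (-0.32), ZNF664 (-0.36) and DNAH10 (-0.22) had smaller differences, MPHOSPH9 (-0.68) and TMED2 (-0.64) larger ones, and KMT5A, not counted, went from 0.33 to -0.39. No counted member changed sign. The cause of these shifts was not tested. No paired analysis was possible because each population had 1 array per processing and the labels give no replicate numbers. For the same reason no replicate could be left out.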
